A study of Mus musculus with 12 samples.

Results

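GABA-A receptors are chloride channels built of 5 subunits around a pore, and they carry most of the fast inhibition in the brain. The 6 subunit genes *Gabrb1*, *Gabrb2*, *Gabrg1*, *Gabrg3*, *Gabrd* and *Gabre*, of the β, γ, δ and ε classes, were followed in the brainstem of neonatal mice given saline or morphine. They were taken by symbol from a table of counts, as 6 of the 55418 genes listed, with earlier results of these data known. All 6 passed the filter on low counts in each comparison. The table held 12 libraries of 1 mouse each, from the brainstem (medulla and pons) of outbred CFW mice at P15. There were 3 saline females (replicates 4 to 6), 3 saline males (1 to 3), 3 morphine females (1 to 3) and 3 morphine males (4 to 6). Pups were injected under the skin 2 times a day, P1 through P14, with saline or with morphine at 15 mg/kg, and the tissue was collected 16 h after the final injection. Control and morphine mice thus shared the handling and the injections. No label gave the dam, so mice of 1 litter could not be identified.

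In the assembled receptor, the β subunits pair with α subunits to form the GABA binding site. A γ subunit anchors many receptors at synapses and gives them sensitivity to benzodiazepines. The δ subunit takes the place of γ in receptors outside the synapse that carry tonic inhibition and respond to neurosteroids, with cerebellar granule cells as a classical site. The ε subunit, whose gene lies on the X chromosome, is found in a few cell groups, brainstem monoamine neurons among them, and receptors that hold it are insensitive to benzodiazepines. In the brainstem these receptors restrain the networks for breathing, arousal and autonomic control.

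The 6 genes lie at 5 chromosomal places in the GRCm38 build (GENCODE M21). *Gabrb1* (ENSMUSG00000029212) spans chr5:71658113-72149037 on the plus strand and *Gabrg1* (ENSMUSG00000001260) spans chr5:70751047-70842617 on the minus strand. Both belong to the α2-α4-β1-γ1 cluster, where *Gabra2* lies 115.0 kb from *Gabrg1*, and *Gabra4*, on the opposite strand, overlaps the start of *Gabrb1*. *Gabrb2* (ENSMUSG00000007653) spans chr11:42419757-42629028 on the plus strand, 98.7 kb from *Gabra6*. *Gabrg3* (ENSMUSG00000055026) spans chr7:56716465-57387188 on the minus strand, 20.5 kb from *Gabra5*. *Gabre* (ENSMUSG00000031340) spans chrX:72255999-72274803 on the minus strand, 157.9 kb from *Gabra3* and 550.4 kb from *Gabrq*, and its span holds the miRNA genes *Mir224* and *Mir452*. *Gabrd* (ENSMUSG00000029054) spans chr4:155384980-155398112 on the minus strand and has no subunit neighbour in a cluster. The counting is not stated to use strand, so reads at the shared start of *Gabrb1* and *Gabra4* cannot be assigned with certainty. The same holds where the long span of *Gabrg3* holds unnamed gene models on either strand.

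The promoter windows of *Gabrb1*, *Gabrg3* and *Gabrg1* are shown because these 3 genes varied together most closely over the libraries, as described further on. Each is 300 bases of the RefSeq table (GRCm38.p6), with 250 bases before and 50 after an annotated start, printed 5′ to 3′ on the gene's strand. Capitals mark CG pairs, the letters that are dense in CpG islands. The *Gabrb1* window is chr5:71657671-71657970 on the plus strand, the *Gabrg3* window is chr7:57387166-57387465 on the minus strand, and the *Gabrg1* window is chr5:70842568-70842867 on the minus strand.
Gabrb1: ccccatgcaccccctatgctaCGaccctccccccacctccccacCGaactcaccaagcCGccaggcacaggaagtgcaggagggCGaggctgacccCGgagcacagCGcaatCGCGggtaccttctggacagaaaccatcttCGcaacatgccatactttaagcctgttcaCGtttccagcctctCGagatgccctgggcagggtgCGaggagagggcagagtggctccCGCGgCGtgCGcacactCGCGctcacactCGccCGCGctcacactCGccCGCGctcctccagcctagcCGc
Gabrg3: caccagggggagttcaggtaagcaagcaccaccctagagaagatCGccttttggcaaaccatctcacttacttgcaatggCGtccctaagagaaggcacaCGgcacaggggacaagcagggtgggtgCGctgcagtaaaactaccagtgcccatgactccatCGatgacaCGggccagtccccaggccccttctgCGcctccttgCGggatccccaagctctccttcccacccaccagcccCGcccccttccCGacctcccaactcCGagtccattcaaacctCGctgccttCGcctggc
Gabrg1: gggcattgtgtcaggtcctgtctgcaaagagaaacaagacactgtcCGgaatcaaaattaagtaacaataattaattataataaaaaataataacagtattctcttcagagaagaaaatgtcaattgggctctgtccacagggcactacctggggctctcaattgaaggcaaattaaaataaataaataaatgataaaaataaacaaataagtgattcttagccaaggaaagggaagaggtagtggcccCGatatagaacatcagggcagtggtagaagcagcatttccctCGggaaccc
The printed window of *Gabrb1*, the first of 2, holds 25 CG pairs and the second (chr5:71699682-71699981) holds 9. The window of *Gabrg3* holds 13 and that of *Gabrg1* 3, against a median of 7 over 32851 windows. At least 25 pairs were found in 18.4% of all windows, and 3 or fewer in 31.4%. The window of *Gabre* holds 24, and the 3 windows of *Gabrb2* hold from 9 to 11. Windows were matched for 5 of the 6 genes, and *Gabrd* was not matched.

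Total counts per library ran from 27850565 to 48097947 with a median of 33214511. The deposited extraction note names spinal cords, whereas the labels give brainstem. The summed level of 4 caudal spinal cord Hox genes was at most 0.466 CPM (read counts scaled to the size of the library) in any library, and *Slc6a5*, the glycine transporter of brainstem and spinal inhibitory neurons, was at 479 to 638 CPM. *Neurod6*, a forebrain marker, was at 7.02 to 13.2 CPM. Several libraries are to be read with care. The library labelled morphine male 6 had 379.9 CPM of *Xist*, a female transcript that ranged from 547 to 970 CPM in the females and from 0.398 to 2.71 CPM in the other males. Its summed level of 4 Y-linked genes was 17.5% of the mean of the other males, so its sex label was contradicted in part. Leaving out saline male 3 raised the number of genes called in the males-only comparison from 543 to 5341. Saline males 1 and 2 also stood apart from the other 10 libraries. *Slc32a1*, the vesicular GABA transporter, was at 99.3 and 106.9 CPM in them against 30.5 to 64.4 CPM elsewhere, and *Tubb3*, a neuronal tubulin, at 547 and 590 CPM against 154 to 368 CPM.

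Per kilobase of merged exons, the measure that allows levels of different genes to be compared, *Gabrb2* was highest of the 6 genes. Its mean over the 12 libraries was 11.7 ± 2.29 CPM per kb (SD, n = 12). *Gabrg1* followed at 10.6 ± 1.70 CPM per kb and *Gabrb1* at 8.97 ± 1.28 CPM per kb. The ranges of these 3 genes over the libraries overlapped: *Gabrb2* was above *Gabrg1* in 9 of 12 libraries, and *Gabrg1* was above *Gabrb1* in 12 of 12. *Gabre* at 2.46 ± 0.349 CPM per kb and *Gabrg3* at 2.45 ± 0.430 CPM per kb were 3.64 times below *Gabrb1* without overlap and could not be ordered, since *Gabre* was higher in 6 of 12 libraries. *Gabrd* was lowest at 0.682 ± 0.239 CPM per kb, 3.59 times below *Gabrg3* with no overlap.

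Set beside other subunit genes by their means, the 3 abundant members stood below *Gabra3* (33.4 ± 4.89 CPM per kb), *Gabra2* (26.5 ± 3.76) and *Gabra5* (15.3 ± 1.92). They stood above *Gabra4* (6.45 ± 0.948) and *Gabrq* (4.78 ± 0.563). The range of *Gabra5* (13.0 to 18.5) overlapped with those of *Gabrb2* and *Gabrg1*, and *Gabrb2* was above *Gabra5* in saline female 6 and morphine male 5. The range of *Gabra4* (5.27 to 8.44) overlapped with those of all 3. *Gabra6*, the α subunit of cerebellar granule cells, varied most widely among the genes above *Gabrr1*, from 0.317 to 7.67 CPM per kb. *Gabrd* stood above *Gabrr1*, the highest of the ρ genes at 0.178 ± 0.086 CPM per kb. As raw abundance, *Gabrb1* was above 90.5% of the 18608 genes kept, *Gabrg1* above 85.0%, *Gabrb2* above 83.1%, *Gabrg3* above 65.4%, *Gabre* above 48.7% and *Gabrd* above 26.7%.

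**Figure D1:**
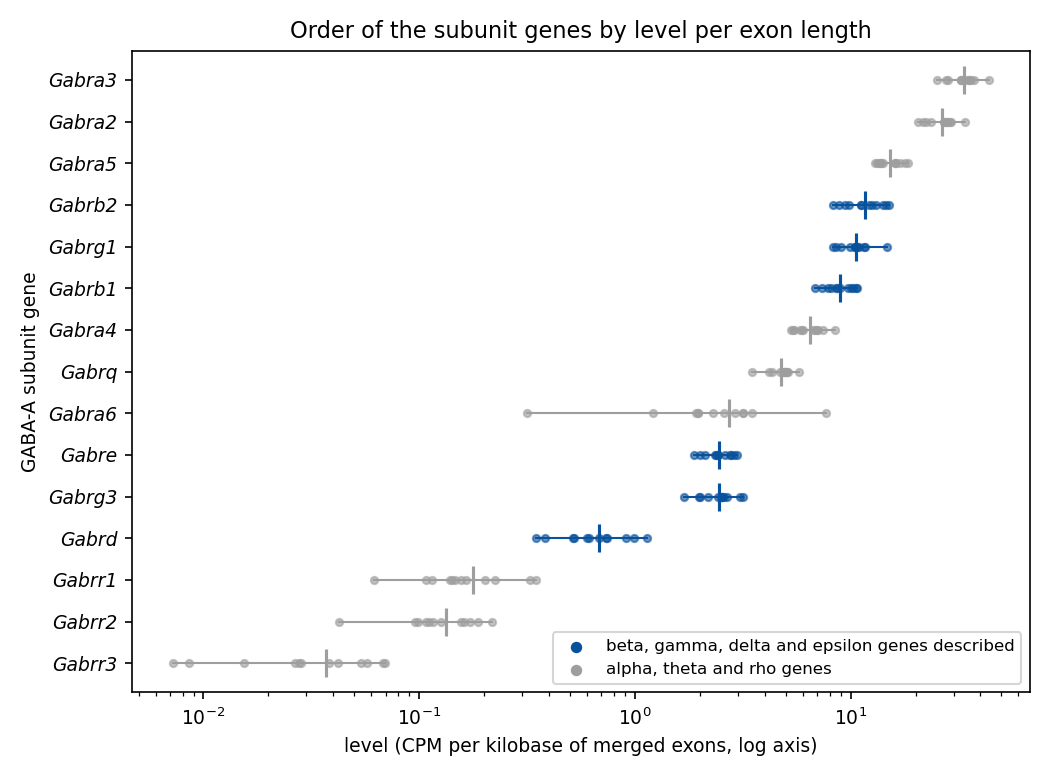
Level of the GABA-A subunit genes in CPM per kilobase of merged exons (log axis), one row per gene in order of the mean; dots are the 12 libraries, vertical ticks are means and lines span lowest to highest. Blue marks the genes described and gray other subunit genes; *Gabrp*, which was at 0 in some libraries, is not drawn. *Gabrb2*, *Gabrg1* and *Gabrb1* overlap with each other at about 9 to 12 CPM per kb, and *Gabrd* sits below the rest of the blue genes.

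*Gabrb1* and *Gabrb2* encode the β1 and β2 subunits. *Gabrb1* was at 120.2, 118.3 and 146.4 CPM in the saline females and at 109.1, 94.5 and 147.6 CPM in the saline males. It was at 141.5, 138.6 and 112.6 CPM in the morphine females and at 124.2, 134.5 and 102.0 CPM in the morphine males. The highest and the lowest libraries were both saline males, and the 4 groups overlapped. *Gabrb2* was at 71.0, 56.4 and 92.8 CPM in the saline females and at 77.3, 52.7 and 95.8 CPM in the saline males. It was at 80.2, 71.1 and 59.8 CPM in the morphine females and at 83.1, 90.0 and 62.6 CPM in the morphine males. Here too, the extremes were saline males, 1.82 times apart, and the groups overlapped. Within each library, the ratio of *Gabrb1* to *Gabrb2* per kilobase ranged from 0.649 to 0.964, with means of 0.782 ± 0.089 (SD, n = 6) after morphine and 0.774 ± 0.111 (n = 6) after saline.

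*Gabrg1* and *Gabrg3* encode the γ1 and γ3 subunits. *Gabrg1* was at 82.8, 83.4 and 90.8 CPM in the saline females and at 71.0, 67.5 and 116.3 CPM in the saline males. It was at 91.4, 82.7 and 86.1 CPM in the morphine females and at 78.1, 84.3 and 65.5 CPM in the morphine males. The 6 female libraries lay close together, with a coefficient of variation of 4.65%, against 23.5% in the 6 libraries labelled male and 10.6% in the 5 that remained without saline male 3. *Gabrg3* was at 29.0, 30.8 and 36.6 CPM in the saline females and at 24.0, 20.3 and 38.0 CPM in the saline males. It was at 30.3, 30.3 and 26.1 CPM in the morphine females and at 31.7, 30.1 and 23.8 CPM in the morphine males. Saline male 3 was the highest library for both γ genes, and the groups overlapped. The ratio of *Gabrg1* to *Gabrg3* per kilobase ranged from 3.73 to 5.06, so γ1 message exceeded γ3 message in each library.

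*Gabrd* encodes the δ subunit and rested on few reads, with 33 to 130 counts per library. It was at 1.49, 1.00 and 1.76 CPM in the saline females and at 2.15, 2.84 and 1.10 CPM in the saline males. It was at 1.51, 2.10 and 1.72 CPM in the morphine females and at 1.96, 3.28 and 2.63 CPM in the morphine males. This was the widest spread of the 6 genes, 3.27 times between morphine male 5 and saline female 5. Both sexes and both treatments overlapped, with saline male 3 far below the other males. *Gabre*, the X-linked ε gene, was at 14.04, 11.2 and 10.0 CPM in the saline females and at 9.48, 8.88 and 12.4 CPM in the saline males. It was at 11.5, 13.6 and 13.2 CPM in the morphine females and at 13.1, 11.2 and 11.5 CPM in the morphine males. The lowest 2 libraries were saline males, and the groups overlapped.

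**Figure D2:**
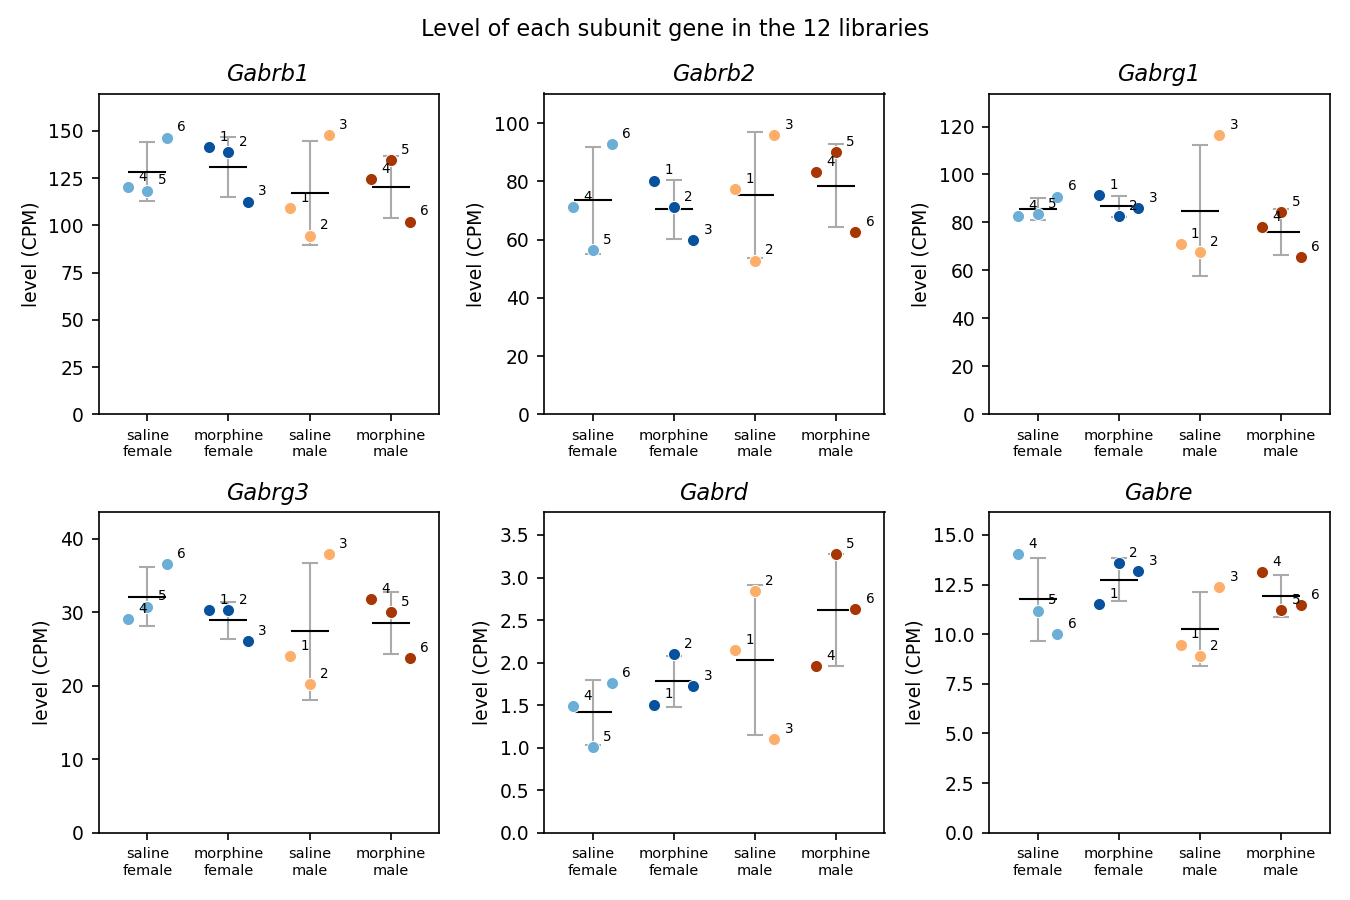
Level (CPM, linear axis from 0) of each of the 6 genes in the 4 groups of 3 mice; dots are libraries marked with their replicate number, horizontal lines are group means and bars are the SD. All panels overlap between saline and morphine, and saline male 3 is the highest library for *Gabrb1*, *Gabrb2*, *Gabrg1* and *Gabrg3* and the lowest male for *Gabrd*.

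The comparison of morphine with saline asked which genes differed in the brainstem during withdrawal. None of the 6 genes was called by edgeR's quasi-likelihood test in the sex-combined comparison, where a call required an absolute log2 fold change above 0.26 together with an unadjusted p below 0.05. The same rule called 1.19% of the 18608 genes tested, and 0% had a Benjamini-Hochberg adjusted p below 0.05. None of the 6 had an unadjusted p below 0.05, against 1.32% of all genes, and DESeq2 and edgeR's exactTest called none either. The 6 morphine and 6 saline libraries overlapped for each of the 6 genes, and 0.043% of all genes had groups that did not overlap. The median log2 fold change was 0.026 over the 6 genes and −0.020 over all genes tested. In bulk tissue, fewer cells of a type and less RNA per cell cannot be told apart.

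The estimates for the β and γ genes lay near 0 in the sex-combined comparison. *Gabrb1* differed by a log2 fold change of 0.043 ± 0.12 (SE, 95% interval −0.22 to 0.30), and *Gabrb2* by 0.0088 ± 0.16 (−0.34 to 0.36). *Gabrg1* differed by −0.063 ± 0.13 (−0.34 to 0.22) and *Gabrg3* by −0.039 ± 0.15 (−0.36 to 0.29). The intervals leave room for changes past the fold threshold in at least 1 direction for each gene, so a moderate change was not detectable with 6 mice against 6. *Gabrd* had the largest estimate of the 6, 0.36 ± 0.23 (−0.14 to 0.85), with a mean of 2.20 ± 0.651 CPM after morphine and 1.72 ± 0.692 CPM after saline (SD, n = 6 each). *Gabre* followed at 0.18 ± 0.12 (−0.082 to 0.44), with 12.3 ± 1.06 CPM after morphine and 11.0 ± 1.95 CPM after saline. An exact permutation test within sex, two-sided, gave p = 0.16 for *Gabrd* and p = 0.14 for *Gabre*. Without saline male 3 the estimate for *Gabrd* was 0.20. Without both saline males 1 and 2 it was 0.62 (unadjusted p = 0.0321 and Benjamini-Hochberg adjusted p = 0.359 by edgeR's quasi-likelihood test), a call made in a fit that called 11.7% of all genes.

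In the females alone, 0 of the 6 genes were called, against 1.81% of 18109 genes, and 0 of 6 had groups that did not overlap, against 5.65%. *Gabrd* differed by 0.32 ± 0.29 (95% interval −0.32 to 0.96) and *Gabrg3* by −0.16 ± 0.12 (−0.44 to 0.12), the estimates farthest from 0. *Gabrg1* had the tightest interval, at 0.011 ± 0.091 (−0.19 to 0.21). In the males alone, 0 of 6 were called, against 2.99% of 18166 genes, and 0 of 6 had groups that did not overlap, against 9.1%. Intervals were wider in males, as for *Gabrd* at 0.36 ± 0.37 (−0.52 to 1.23) and *Gabrg1* at −0.17 ± 0.24 (−0.75 to 0.40). With 3 mice against 3, an exact permutation test cannot give a two-sided p below 0.1. The interaction test, which asks whether the morphine change differed between the sexes, called 0 of the 6 genes and 2.94% of 19027 genes. The largest interaction estimate was 0.23 ± 0.31 for *Gabrg3* (males minus females, −0.44 to 0.89).

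The male result for 2 genes changed when saline male 3 was left out. The saline arm was then saline males 1 and 2 alone, which stood apart from the other libraries as described above. Without saline male 3, *Gabrg3* was higher after morphine in males by 0.40 (edgeR quasi-likelihood unadjusted p = 0.0234) and *Gabre* by 0.41 (unadjusted p = 0.0191), on the basis of 2 saline males against 3. In that fit, 28.6% of all 18652 genes were called, so 2 of 6 lay near the background of that fit. Without the same library, the interaction for *Gabrg3* was 0.52 (unadjusted p = 0.0214), beside 24.1% of all genes called.

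Females and males, compared in the sex-combined fit with treatment as the covariate, differed for 1 of the 6 genes, against 3.94% of all genes called and 3.05% called lower in females. *Gabrd* was lower in females by 0.53 on the log2 scale (log2 difference −0.53 ± 0.23, 95% interval −1.03 to −0.033, unadjusted p = 0.0384). Its mean was 1.60 ± 0.367 CPM in females and 2.33 ± 0.765 CPM in males (SD, n = 6 each), and the ranges overlapped. For 0 of the 6 genes did the sexes not overlap, against 0.129% of all genes. The adjusted p of *Gabrd* was 0.734 by edgeR's quasi-likelihood test with Benjamini-Hochberg adjustment. The call was kept in 4 of 12 fits that left out 1 library. It was lost without the library labelled morphine male 6, whose sex label is in doubt (−0.53, unadjusted p = 0.0592), and also without saline male 1 or 2, saline female 4 or 5, morphine female 1 or 3, or morphine male 5. Without both saline male 3 and morphine male 6, the difference was −0.69 (unadjusted p = 0.00846), and without both saline males 1 and 2 it was −0.28 (unadjusted p = 0.279) and not called.

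The other 5 genes were not called between the sexes. *Gabre*, which is X-linked, was at 12.2 ± 1.58 CPM in females and 11.1 ± 1.64 CPM in males, a log2 difference of 0.16 ± 0.12 (−0.11 to 0.42). *Gabrb1* differed by 0.14 ± 0.12, *Gabrg3* by 0.13 ± 0.15, *Gabrg1* by 0.11 ± 0.13 and *Gabrb2* by −0.088 ± 0.16.

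**Figure D3:**
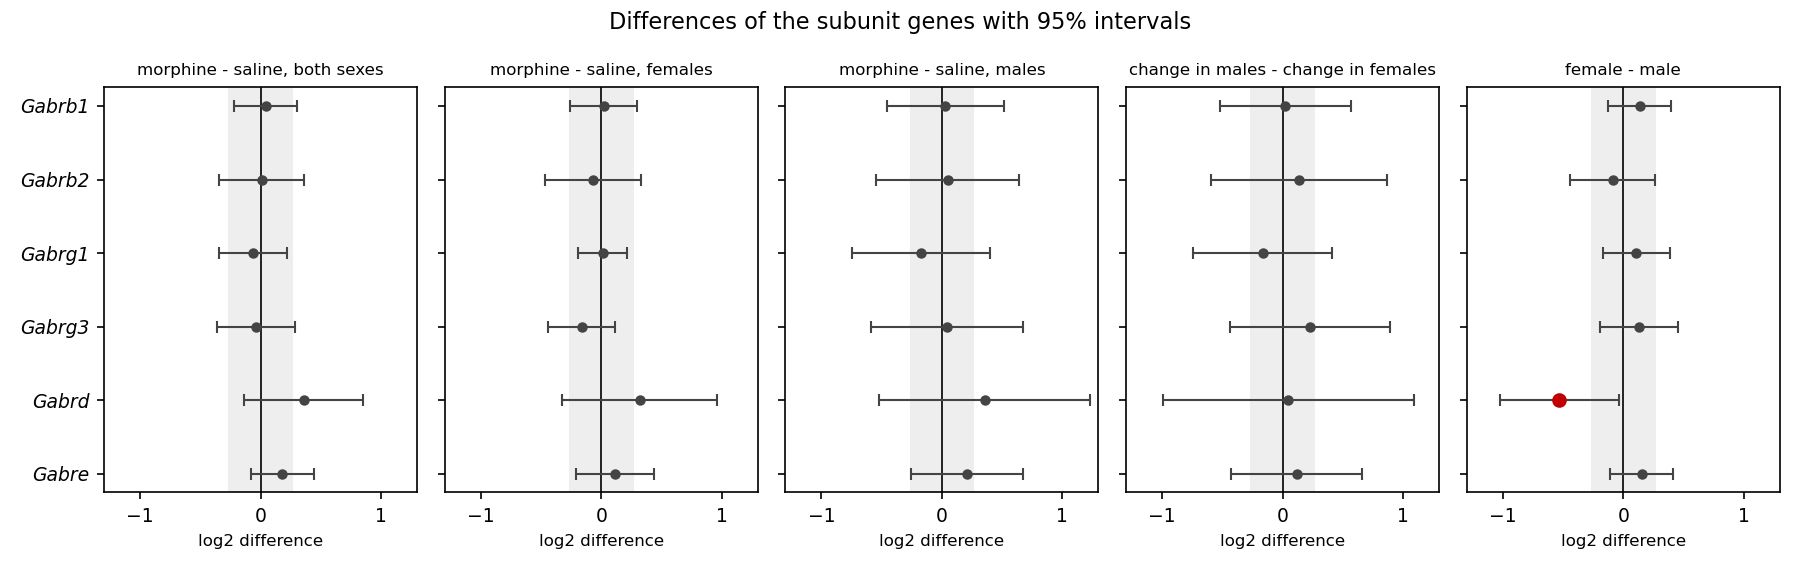
Log2 differences of the 6 genes with 95% intervals (edgeR quasi-likelihood fits) for morphine minus saline in both sexes, females and males, for the change in males minus that in females, and for female minus male. The gray band spans ±0.26, and red marks the call, *Gabrd* between the sexes at −0.53, while each of the other intervals includes 0.

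Markers of cerebellar granule cells, a classical site of the δ subunit, were followed because the brainstem adjoins the cerebellum. Of 8 cerebellar granule cell markers, 3 were called higher after morphine in the sex-combined comparison and none lower, beside 0.607% of all genes called higher. The list was chosen with earlier results of these data known, and the study lists *Fat2* among its differentially expressed genes. The count is therefore not an independent test. *Gabra6* rose by 0.99 ± 0.44 on the log2 scale, *Cbln3*, a granule cell synaptic organizer, by 0.77 ± 0.33 and *Fat2*, a granule cell protocadherin, by 0.39 ± 0.17. By edgeR's quasi-likelihood test the unadjusted p was 0.0420 for *Gabra6*, 0.0336 for *Cbln3* and 0.0341 for *Fat2*, and the Benjamini-Hochberg adjusted p was 1.00 for each. The median over the 8 was 0.31, beside −0.020 over all genes. The count was 0 of 8 without saline male 1, 2 or 3 or morphine male 5, each left out alone. In females 0 of 8 were called, with a median of 0.095, and in males the same 3 genes were called higher, beside 1.92% of all genes. The male count was 1 without saline male 2, in a fit that called 1.92% of all genes in either direction. It was 5 without saline male 3, in a fit that called 28.6%. *Fat2* differed by −0.060 ± 0.15 in females and rose by 0.81 ± 0.17 in males, and its interaction was called (0.89 ± 0.23, unadjusted p = 0.00218, Benjamini-Hochberg adjusted p = 0.985 by edgeR's quasi-likelihood test). The summed level of the 8 markers was 150 to 233 CPM after morphine and 132 to 176 CPM after saline, and none was at 0 in all libraries. Morphine male 5 was highest for the sum, for *Gabra6* (19.1 CPM), for *Cbln3* (21.7 CPM) and for *Gabrd* (3.28 CPM). Saline female 5 was lowest for the sum, for *Gabra6* (0.790 CPM), for *Cbln3* (3.37 CPM) and for *Gabrd* (1.00 CPM). Other libraries ran otherwise. Saline male 2 had 2.84 CPM of *Gabrd* with 3.02 CPM of *Gabra6*, and saline male 3 had 1.10 CPM of *Gabrd* with a marker sum of 165 CPM. Over the 12 libraries, the Pearson's r of log2 CPM with *Gabrd* ran from 0.03 for *Zic1* to 0.70 for *Cbln1* among the 8 markers. Morphine male 5 was also highest for the summed level of 5 Purkinje cell markers (145 CPM). The part of granule cells in the *Gabrd* values was not tested.

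Between the sexes, 3.05% of all genes were called lower in females. Of the 8 granule markers this held for 1, *Barhl1*, and their summed level was 132 to 176 CPM in females and 139 to 233 CPM in males. Of 4 choroid plexus markers, *Ttr* and *Folr1* were called lower in females, by 2.02 and 1.92 on the log2 scale (log2 differences −2.02 and −1.92), while *Kcne2* (unadjusted p = 0.0578) and *Kl* (unadjusted p = 0.0624) were not. Their sum was 7.75 to 456 CPM in females and 257 to 815 CPM in males, with overlap. None of the 4 was called without any 1 of the morphine females, and 4 were without saline female 6. These sums stand beside the *Gabrd* sex difference, and their part in it was not tested.

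Of the 11 other subunit genes, 9 were tested in the sex-combined comparison, and their median was −0.042. Of these, 1 was called higher (*Gabra6*) and none lower, beside 1.19% of all genes called. In females 0 of 8 were called, beside 1.81% of all genes. In males 1 of 9 was called, beside 2.99%, again *Gabra6*, higher by 1.35 ± 0.46 (edgeR quasi-likelihood unadjusted p = 0.0220). The sex-combined call of *Gabra6* was lost without saline male 1, 2 or 3, saline female 4, morphine female 2 or 3, or morphine male 5, and the male call without saline male 2. Of 19 genes for GABA synthesis, transport, anchoring, chloride handling and GABA-B receptors, 0 were called in any comparison of morphine with saline over all libraries, with a sex-combined median of 0.019. Without saline male 3, 7 of the 19 were called in males, beside 28.6% of all genes. *Slc12a5*, which encodes the neuronal chloride exporter KCC2, was the 1 gene of this list called between the sexes, lower in females by 0.34 on the log2 scale (−0.34 ± 0.16, unadjusted p = 0.0497), and 1 of 19 stands near the 3.94% called over all genes. It was at 404 and 425 CPM in saline males 1 and 2 and at 195 to 364 CPM in the other males, against 226 to 279 CPM in females. The call was kept without saline male 3, morphine female 3 or morphine male 5, 3 of 12 fits that left out 1 library. It was lost without each of the others, as without morphine male 6 (−0.30, unadjusted p = 0.106), and without both saline males 1 and 2 the difference was −0.057 (unadjusted p = 0.661).

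The β and γ genes were positively correlated over the libraries, and 5 of their 6 pairs passed the threshold on the adjusted p. Of the 15 pairs among the 6 genes, *Gabrb1* and *Gabrg3* had the highest correlation of log2 CPM (Pearson's r = 0.92, Spearman's ρ = 0.87, n = 12 libraries). By a permutation test with 100000 draws, adjusted over the 15 pairs, p was 0.00015 for r and 0.0087 for ρ, and r was 0.86 without the 2 most extreme libraries. *Gabrg1* correlated with *Gabrg3* (r = 0.84, ρ = 0.70, adjusted permutation p = 0.00405 and 0.0477) and with *Gabrb1* (r = 0.83, ρ = 0.80, adjusted permutation p = 0.00292 and 0.0148). Without their 2 most extreme libraries these were 0.81 and 0.80. *Gabrb2* correlated with *Gabrb1* (r = 0.80, ρ = 0.82, adjusted permutation p = 0.00878 and 0.0134, r = 0.66 without 2 libraries) and with *Gabrg3* (r = 0.74, ρ = 0.69, adjusted permutation p = 0.0171 and 0.0477, r = 0.79 without 2 libraries). *Gabrb2* and *Gabrg1* missed the threshold (r = 0.60, ρ = 0.55, adjusted permutation p = 0.0724 and 0.124, r = 0.59 without 2 libraries). *Gabre* correlated with none of the other genes past the threshold. *Gabrd* ran opposite to *Gabrg1* (r = −0.65, ρ = −0.60, adjusted permutation p = 0.053 and 0.0992), which missed the threshold and shrank to −0.45 without 2 libraries.

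These correlations have to be read beside a property of the libraries. The median deviation of the 4652 longest genes kept minus that of the 4652 shortest ran from −0.22 in saline male 2 to 0.18 in saline male 3 on the log2 scale. The index overlapped between the groups, from −0.16 to 0.10 after morphine and from −0.22 to 0.18 after saline. *Gabrb1* (13838 bp of merged exons) and *Gabrg3* (11934 bp) are longer than 97.0% and 95.1% of the genes kept. *Gabrg3* followed the index with r = 0.92 (ρ = 0.89, adjusted permutation p = 0.00018 and 0.00108 over 6 relations) and *Gabrb1* with r = 0.86 (ρ = 0.87, adjusted permutation p = 0.00135 and 0.00114). *Gabrb2* did so with r = 0.75 (ρ = 0.80, adjusted permutation p = 0.0124 and 0.00574) and *Gabrg1* with r = 0.68 (ρ = 0.61, adjusted permutation p = 0.0188 and 0.0602). *Gabrb2* (6360 bp) and *Gabrg1* (7869 bp) are also among the 4652 longest genes, so each of these β and γ genes is part of the index. The permutation p values are set against an r of 0, whereas over all long genes the median r with the index was 0.50. Without saline males 2 and 3, the most extreme libraries, r was 0.87 for *Gabrg3*, 0.77 for *Gabrb1*, 0.58 for *Gabrb2* and 0.44 for *Gabrg1*. The relations of *Gabre* (r = 0.36, ρ = 0.21, adjusted permutation p = 0.304 and 0.512) and *Gabrd* (r = −0.29, ρ = −0.28, adjusted permutation p = 0.359 and 0.452) missed the threshold and were 0.050 and 0.11 without the 2 libraries.

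After a linear fit on the index, the correlation of the residuals was 0.64 for *Gabrb1* and *Gabrg3*, 0.77 for *Gabrg1* and *Gabrg3* and 0.66 for *Gabrb1* and *Gabrg1*. It was 0.45 for *Gabrb1* and *Gabrb2* and 0.18 and 0.19 for *Gabrb2* with *Gabrg3* and with *Gabrg1*. *Gabrd* and *Gabrg3*, at −0.58 before, were at −0.83 after the fit. The residual values are descriptions, chosen after the data were seen. With the index as a covariate, 0 of the 6 genes were called after morphine, and *Gabrd* kept its call between the sexes (−0.49, unadjusted p = 0.0425).

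**Figure D4:**
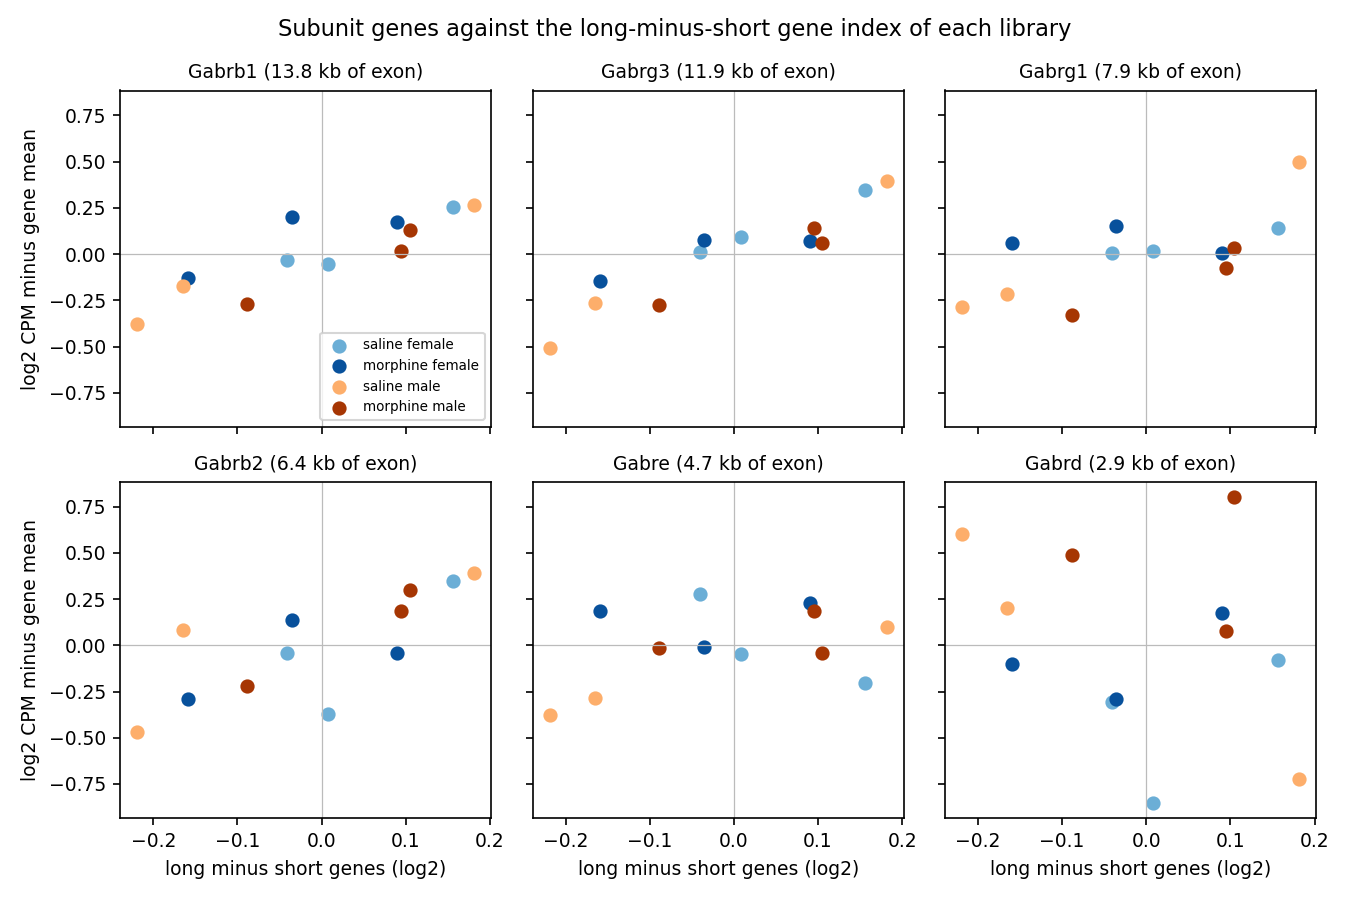
Log2 CPM of each gene minus its mean over the 12 libraries (vertical axis) against the long-minus-short gene index of the library (horizontal axis, log2), with panels in order of exon length and colors for the 4 groups. *Gabrg3* and *Gabrb1* follow the index with r = 0.92 and 0.86, whereas *Gabre* and *Gabrd* scatter around 0.

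The genes whose log2 CPM followed each member most closely were named as the 3 with the highest Pearson's r over 12 libraries among the genes kept, with no test. *Gabrb1* was most like *Dennd4a* (r = 0.98, ρ = 0.97), *Kitl* (0.98, 0.97) and *Aff4* (0.98, 0.97). *Gabrb2* was most like *Plagl1* (0.95, 0.97), *Myo5a* (0.94, 0.91) and *Prlr* (0.94, 0.95). *Gabrg1* was most like *Actr2* (0.99, 0.98), *Trnt1* (0.99, 0.96) and *Fam45a* (0.99, 0.87), and *Gabrg3* most like *Zkscan1* (0.99, 0.87), *Dpp8* (0.98, 0.87) and *Senp5* (0.98, 0.94). No other subunit gene was among these closest genes. *Gabrd* was most like *9930104L06Rik* (0.91, 0.92), *Trim67* (0.89, 0.90) and *Dnmbp* (0.89, 0.89), and *Gabre* most like *Dnajc5* (0.91, 0.94), *Peg10* (0.89, 0.87) and *Kctd20* (0.87, 0.82).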

How the data were processed

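RNA of 12 brainstems was sequenced as single-end reads of 100 bp, all libraries on 1 lane. Per the study's methods and the submitters' processing notes, the authors used Trimmomatic for trimming, STAR for mapping to mm10 and featureCounts for counting over exons. The deposited values are counts per gene, whole numbers whose totals differ between libraries, and were treated as raw counts. Counting by strand is not given in the sources used here. Each library was put in its group by its labels.

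Counts were fitted over all genes kept by filterByExpr with edgeR 4.0.16 in R 4.3.3 (limma 3.58.1), using TMM normalization, the quasi-likelihood test and Benjamini-Hochberg adjustment over all genes kept. The sex-combined fit had sex as covariate, females and males were fitted alone, and the interaction was fitted over 12 libraries. The study's thresholds were used for calls, an absolute log2 fold change above 0.26 together with an unadjusted p below 0.05. Levels are TMM-scaled CPM, with a prior count of 2 for logs. Precision rests on 3 or 6 mice per group. The quasi-likelihood p values weigh a difference against the spread between mice, which is estimated with information from all genes kept. The scripts were tested on simulated data. GENCODE M21 held 55341 of the 55418 symbols.

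The members and gene lists were chosen with earlier results of these data known. The genes named were the 6 members, listed GABA genes that passed a call, and subunit genes of a member's cluster, named for their level. The 3 genes most correlated with each member were also named, and markers whose list moved with a member. The levels of *Gabrr1*, *Xist*, *Slc6a5*, *Slc32a1*, *Tubb3* and *Neurod6* were chosen after the values were seen. Not every GABA-A subunit gene is reported here. Alternatives were DESeq2 1.42.0, exactTest, other scalings, filters and covariates, leaving out each library, and a replicate block. Pairing by replicate number was checked and not used. The covariate for gene length and leaving out pairs of libraries were added after the data were seen.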

Additional observations from a re-analysis of the deposited data

How the results depend on the processing

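In the comparisons of morphine with saline and in the interaction, 0 of the 6 genes were called under any of the planned settings that kept all libraries (DESeq2, exactTest where it could be run, other scalings and filters, the threshold on p alone). The 1 gene called between the sexes was called under these settings too. Some values changed sign: *Gabrg3* in the sex-combined comparison was 0.0092 with scaling by total counts. With the gene length index as a covariate, *Gabrb2* was −0.0010. Without both saline male 3 and morphine male 6, *Gabrg1* was 0.095 and *Gabrg3* was 0.093. Without both saline males 1 and 2, 1 of the 6 genes was called in the sex-combined comparison (*Gabrd*) and 0 between the sexes. The sex-combined value was then −0.080 for *Gabrb1* and −0.14 for *Gabrb2*, and the sex difference was −0.027 for *Gabrg1* and −0.066 for *Gabrg3*. The index and the removal of pairs of libraries were chosen after the data were seen, and the cause of these shifts was not tested.

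With the replicate block, 0 of the 6 genes were called in the sex-combined comparison and 204 genes in all, against 221 without it. Same-numbered libraries, which were of opposite sex, deviated from their group means with r from −0.36 to 0.18. These values were not set against differently numbered libraries, so they cannot show whether the numbers carry a pairing. Same-numbered libraries were not taken as pairs.

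Leaving out 1 library at a time left 0 members called in the sex-combined and female comparisons, 0 to 2 in males, 0 to 1 in the interaction and 0 to 1 between the sexes, where *Gabrd* ranged from −0.68 to −0.40. An arm of 2 was assumed to vary like the others. The sex-combined log2 fold change ranged from −0.023 to 0.12 for *Gabrb1*, from −0.093 to 0.091 for *Gabrb2*, from −0.12 to 0.065 for *Gabrg1* and from −0.13 to 0.070 for *Gabrg3*. In females the ranges were −0.036 to 0.14 for *Gabrb1*, −0.22 to 0.15 for *Gabrb2* and −0.025 to 0.069 for *Gabrg1*. In males they were −0.12 to 0.27 for *Gabrb1*, −0.16 to 0.30 for *Gabrb2*, −0.33 to 0.16 for *Gabrg1* and −0.14 to 0.40 for *Gabrg3*. In the interaction they were −0.12 to 0.21 for *Gabrb1*, −0.11 to 0.34 for *Gabrb2*, −0.32 to 0.12 for *Gabrg1*, −0.26 to 0.36 for *Gabrd* and −0.048 to 0.26 for *Gabre*. For these genes the sign of the difference was not settled by these data.

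The number of genes called over the whole table moved more. With no filter on low counts it was 754 in the sex-combined comparison against 221, 1094 against 328 in females, 985 against 543 in males, 1665 against 559 in the interaction and 2321 against 733 between the sexes. With the length index as a covariate it was 375 in the sex-combined comparison and 1601 between the sexes. Without both saline male 3 and morphine male 6 it was 380 and 3189, and without saline males 1 and 2 it was 2264 and 398. With the longest transcript in place of merged exons, *Gabrg3* (2.99 CPM per kb by that length, from 2.45) and *Gabre* (2.71) swapped places and the other 4 genes kept theirs. *Gabrd* rested on 33 to 130 counts per library, which limits its precision.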
